A study of Mus musculus with 4 samples.

Results

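The lncRNAs described here are the spliced noncoding transcripts that the annotation leaves without a class. They carry an identifier of the NONCODE catalogue (NONMMUT), have at least 2 exons, and are labelled neither intergenic, antisense, sense, exonic nor intronic in the deposited table. There were 33549 of them among 131850 lncRNAs. Levels and changes were examined for the 2441 whose 4 samples averaged 0.1 FPKM or more. FPKM counts the fragments of a transcript per kilobase of its length and of the size of the library. A further 21919 were listed at 0 in all 4 samples, and 9189 had values above 0 but a mean under the limit. The lncRNA just inside the limit, NONMMUT150442.1, was at 0.108 and 0.109 FPKM in the untreated and 0.101 and 0.0817 FPKM in the 5-AZA samples. The one just outside it, NONMMUT128537.1, had a mean of 0.0999 FPKM, nearly all from 1 5-AZA sample. The multi-exon lncRNAs without a class are called unclassed lncRNAs below.

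The RNA came from C3H10T1/2 cells, a mouse mesenchymal stem cell line grown in culture, so all samples share the background of 1 line. The untreated group held 2 samples, replicates 1 and 2. The 5-AZA group held 2 samples, replicates 101 and 102, which were exposed to 20 μM 5-AZA for 72 hours and then kept in fresh medium for 21 days. No culture time was listed for the untreated cells, and whether the samples of a group came from separate cultures was not stated in the labels, so the p-values measure the spread between these samples. 5-AZA (5-azacytidine) resembles cytidine, is built into DNA, traps DNA methyltransferases and so lowers CpG methylation. It is known to turn cells of this line toward muscle and fat. lncRNAs are transcripts longer than most small RNAs that are not read as protein. Some, such as Xist, act on chromatin, some are imprinted and come from 1 parental allele, and some serve mainly as precursors whose introns or exons are cut into miRNAs or snoRNAs.

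The mRNAs of the same libraries give the cell context. All 8 mesenchymal markers were tested, 1 of them (Thy1) was called higher and 0 lower after 5-AZA. Their summed FPKM ranged from 4694 to 4759 in the untreated and from 3681 to 4088 in the 5-AZA samples. Of 13 skeletal muscle markers tested 13 were called higher, and their summed FPKM ranged from 1.89 to 1.97 in the untreated and from 1055 to 1586 in the 5-AZA samples. Of 7 adipocyte markers 6 were called higher. Over all 13199 mRNA genes tested, 13.1% were called higher and 1.32% lower. Of 2 immune markers tested, Cd68 was called higher, at 1.16 and 1.47 FPKM in the untreated and 2.27 and 3.69 FPKM in the 5-AZA samples, and Lyz2 did not pass, while 3 of the 7 listed, among them Adgre1 and Cd3e, were at 0 in all 4 samples. Of 6 heart markers 4 (Nppa, Nppb, Myl7 and Tbx5) were at 0 throughout, and Myh6, the 1 tested, was called higher, at 0.309 and 0.385 FPKM in the 5-AZA samples. Of 4 testis markers 3 (Prm1, Prm2 and Tnp1) were at 0 throughout, and Ddx4, the 1 tested, was called higher, at 0.578 and 0.917 FPKM in the 5-AZA samples. In bulk RNA, fewer cells of a type and less RNA per cell cannot be told apart, and the part of these cell types in the results below was not tested. FPKM sums over all lncRNAs were 147311 and 150156 in the untreated and 169514 and 223173 in the 5-AZA samples. The highest sum held 1 lncRNA outside the unclassed ones at 49964 FPKM.

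Promoters and miRNAs are the sequences that bear on these lncRNAs. Promoters are shown because 5-AZA acts on CG dinucleotides. The start of 316 tested unclassed lncRNAs lay within 50 bases of a RefSeq transcription start on the same strand. Of these, 3 passed the test given below, all higher after 5-AZA. They are NONMMUT034016.2 and NONMMUT105193.1, which share 1 promoter window at Gm32026, and NONMMUT125096.1 at Gm35353. Of all tested lncRNAs 0.984% and of the unclassed ones 1.64% were called higher. The promoters of Gm32026 and Gm35353 are shown with those of Zfas1, the most abundant host of this kind, and of Rian, whose window holds no CG. Each runs from 250 bases before to 50 bases after the start, 5′ to 3′, as RefSeq gives it for GRCm38.p6, with every CG in capitals. Gm32026 is at chr19:16063863-16064162, Gm35353 at chr7:42505577-42505876, Zfas1 at chr2:167062684-167062983 and Rian at chr12:109603695-109603994, all on the plus strand.
Gm32026: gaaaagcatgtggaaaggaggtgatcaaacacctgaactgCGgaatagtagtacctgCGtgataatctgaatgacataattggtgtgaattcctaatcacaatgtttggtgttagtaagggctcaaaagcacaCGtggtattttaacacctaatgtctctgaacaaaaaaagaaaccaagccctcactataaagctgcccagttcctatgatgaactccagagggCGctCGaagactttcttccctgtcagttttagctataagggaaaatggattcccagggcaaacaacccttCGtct
Gm35353: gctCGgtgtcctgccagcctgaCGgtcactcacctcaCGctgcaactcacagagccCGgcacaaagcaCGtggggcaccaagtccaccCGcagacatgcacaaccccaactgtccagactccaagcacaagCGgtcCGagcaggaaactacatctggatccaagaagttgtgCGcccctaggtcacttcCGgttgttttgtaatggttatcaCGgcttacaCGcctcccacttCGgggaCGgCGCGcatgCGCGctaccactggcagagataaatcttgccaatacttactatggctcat
Zfas1: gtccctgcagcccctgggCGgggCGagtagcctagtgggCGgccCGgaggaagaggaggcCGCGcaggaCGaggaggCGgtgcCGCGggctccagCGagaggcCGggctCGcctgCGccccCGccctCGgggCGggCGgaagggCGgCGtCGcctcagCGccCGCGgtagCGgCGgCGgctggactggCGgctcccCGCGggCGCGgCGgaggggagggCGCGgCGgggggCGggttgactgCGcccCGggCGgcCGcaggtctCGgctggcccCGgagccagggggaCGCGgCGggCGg
Rian: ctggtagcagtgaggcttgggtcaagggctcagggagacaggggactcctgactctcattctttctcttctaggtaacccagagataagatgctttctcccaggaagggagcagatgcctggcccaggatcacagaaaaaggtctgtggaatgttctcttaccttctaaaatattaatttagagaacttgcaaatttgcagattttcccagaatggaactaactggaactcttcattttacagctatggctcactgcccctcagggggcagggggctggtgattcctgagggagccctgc

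The Gm32026 window held 6 CG dinucleotides, that of Gm35353 held 18, that of Zfas1 held 47 and that of Rian held 0. Over all 32544 distinct RefSeq promoter windows the median was 7 (quartiles 3 and 20), and over the 229 windows at tested unclassed lncRNAs it was 15 (quartiles 5 and 26). The promoters at tested unclassed lncRNAs were richer in CG than the RefSeq windows as a whole, as a description with no test. The RefSeq windows were not limited to expressed genes, and other lncRNAs were not compared. Between bins of CG number, the median log2 fold change of the lncRNA was 0.01 for 66 lncRNAs with 0 to 4 CG, 0.14 for 47 with 5 to 9, -0.17 for 88 with 10 to 19 and -0.03 for 115 with 20 or more. The 3 lncRNAs called higher lay in the bins of 5 to 9 and of 10 to 19. DNA methylation was not analysed here.

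A miRNA is cut from a hairpin in a longer transcript, and its seed, bases 2 to 8, pairs with target mRNAs. The span of 62 tested unclassed lncRNAs, at 21 loci, held 43 miRNA hairpins on the same strand. Mature miRNAs of some of these hosts, not picked by the level of the host alone, follow from RefSeq for GRCm38.p6, with the seed in capitals. miR-675 comes from H19, miR-31 from Gm49890, and miR-221 and miR-222 from 1 unclassed lncRNA on chromosome X. The spans of NONMMUT142731.1 and NONMMUT017375.2 on chromosome 13 both hold let-7a, let-7d and let-7f.
miR-675-5p: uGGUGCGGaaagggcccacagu
miR-675-3p: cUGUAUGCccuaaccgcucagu
miR-31-5p: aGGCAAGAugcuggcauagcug
miR-221-3p: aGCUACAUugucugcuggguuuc
miR-222-3p: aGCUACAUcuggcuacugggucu
let-7a-5p: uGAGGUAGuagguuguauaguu
let-7c-5p: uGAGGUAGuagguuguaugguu
let-7d-5p: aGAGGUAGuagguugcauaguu
let-7f-5p: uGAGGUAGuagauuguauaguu
miR-16-5p: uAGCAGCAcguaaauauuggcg
miR-322-5p: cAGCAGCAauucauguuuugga
miR-99a-5p: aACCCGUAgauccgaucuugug
miR-100-5p: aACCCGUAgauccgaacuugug

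Seeds are shared within 4 of these groups. The 4 let-7 miRNAs carry GAGGUAG, miR-221 and miR-222 carry GCUACAU, miR-16 and miR-322 carry AGCAGCA, and miR-99a and miR-100 carry ACCCGUA. The sequences of the unclassed lncRNAs themselves were not used here.

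The tested unclassed lncRNAs were short and weakly expressed. Their median length was 1170 bases, their median number of exons 2 and their median level 0.298 FPKM. The 3116 tested multi-exon intergenic lncRNAs had a median of 0.368 FPKM and the 6556 tested single-exon lncRNAs without a class 0.391 FPKM. Of the 2441, 1469 had 2 exons, 496 had 3, 320 had 4 or 5, 112 had 6 to 9 and 44 had 10 or more. The median transcript length rose with the exon number, from 1020 bases with 2 exons to 3582 bases with 10 or more, and the median level was between 0.240 and 0.335 FPKM in all 5 bins. The 3 with most exons, 22 each, were transcripts of Rian. In all, 460 had a mean of at least 1 FPKM and 75 a mean of at least 10 FPKM.

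Of the unclassed lncRNAs 7.28% reached the limit, against 9.98% of the multi-exon intergenic lncRNAs and 21.4% of the single-exon lncRNAs without a class. The replicates differed more than over all lncRNAs and somewhat more than in multi-exon intergenic lncRNAs, as a description. Between the untreated samples, 374 of the 2441 (15.3%) differed by more than 2 on the log2 scale with a pseudocount of 0.1 FPKM, against 9.20% of all tested lncRNAs and 13.0% of the multi-exon intergenic ones. Between the 5-AZA samples it was 403 (16.5%), against 9.54% and 14.6%. Across transcripts, Pearson's r between replicates was 0.69 in the untreated and 0.73 in the 5-AZA group, and between groups it was 0.57 to 0.60. Transcripts are not independent replicates, and these r values share libraries.

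Of the 2441 unclassed lncRNAs, 456 overlapped a protein-coding gene on their own strand and 719 a RefSeq lncRNA gene on their own strand. A further 305 overlapped genes on the opposite strand only, 457 overlapped genes of which some have no strand in the reference used here, and 504 overlapped no RefSeq gene. Of all 24075 tested lncRNAs 0.984% were called higher and 0.154% lower after 5-AZA, by the test given below. Of the unclassed lncRNAs that overlapped no gene, 13 of 504 were called higher and 1 lower, and of those at genes of which some have no strand listed, 12 of 457 and 1. Of those on a lncRNA gene of their strand 10 of 719 were called higher and 1 lower. Of those with genes on the opposite strand only it was 2 of 305 and 2. Of those that overlapped a protein-coding gene of their strand it was 3 of 456 and 0. The median log2 fold change ranged from -0.20 in those that overlapped a protein-coding gene of their strand to 0.07 in those outside genes.

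The main comparison asked which unclassed lncRNAs differed between untreated and 5-AZA treated cells. Changes are log2 differences of FPKM + 0.1, which understates the change of low transcripts. A lncRNA was called when limma's Benjamini-Hochberg adjusted p over all 24075 tested lncRNAs was below 0.05 and the change was over 2-fold. 40 unclassed lncRNAs were called higher and 5 lower. Of all 24075 lncRNAs 0.984% were called higher and 0.154% lower, and of the unclassed ones 1.64% and 0.205%. Among multi-exon intergenic lncRNAs the shares were 1.89% and 0.193%, and among single-exon lncRNAs without a class 0.717% and 0.137%. At an unadjusted p below 0.05, 207 unclassed lncRNAs were higher and 155 lower. By the same rule 1264 of all 24075 lncRNAs were higher and 1900 lower. Of the 3116 multi-exon intergenic lncRNAs 285 were higher and 204 lower. The median change of the 2441 was -0.07, with quartiles of -0.70 and 0.72, and that of all tested lncRNAs was -0.23. With any 1 of the 4 samples left out, 0 unclassed lncRNAs were called by limma in either direction, while 182 to 310 were higher and 133 to 195 lower at an unadjusted p below 0.05.

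**Figure D1:**
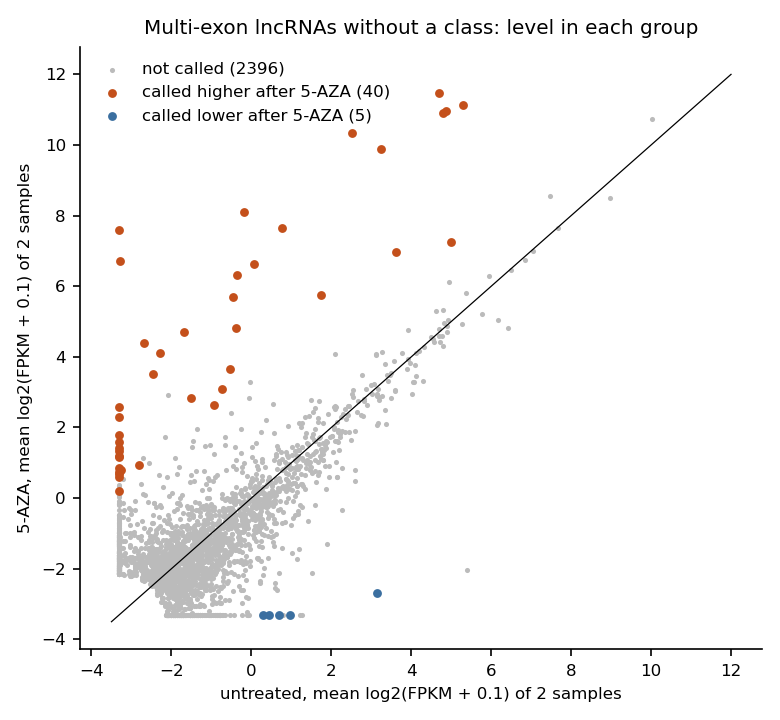
Mean log2(FPKM + 0.1) of the 2 untreated samples (horizontal) and the 2 5-AZA samples (vertical) for the 2441 unclassed lncRNAs, 1 point each, with the line of equal levels. The 40 called higher lie above the line at all levels, and the 5 called lower lie near the bottom edge.

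In all 45 called lncRNAs the values of the groups did not overlap. Over the 2441, both 5-AZA values lay above both untreated values in 457 and below them in 536, against 14.6% and 31.7% of all tested lncRNAs. The rises ranged from 2.25 to 10.92 on the log2 scale with a median of 5.17. Summed over all unclassed lncRNAs, FPKM was 4995 and 6211 in the untreated and 16976 and 20264 in the 5-AZA samples. The 40 called higher made up 4.02% and 2.97% of these sums in the untreated samples and 67.1% and 70.2% in the 5-AZA samples. These 40 were chosen from the same values for being higher after 5-AZA, so the direction of this difference was fixed by the choice. Of the 45 called, 32 had 2 exons. 7 of the 45 overlapped a RefSeq pseudogene, whose reads may be divided between near-identical copies, against 206 of the 2441.

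A group of risers reached very high levels. In the 5-AZA samples, 11 of the 40 had at least 100 FPKM in both. NONMMUT102404.1, a lncRNA of 3 exons at chr17:68945212-68953836 on the minus strand with no RefSeq gene, was at 24.6 and 26.7 FPKM in the untreated and 2582 and 3108 FPKM in the 5-AZA samples. Its mean was 25.7 ± 1.46 FPKM (SD, n = 2) in the untreated and 2845 ± 372 FPKM (SD, n = 2) in the 5-AZA group, a ratio of 111 (log2 change 6.78, SE 0.18, adjusted p = 0.00462). NONMMUT102405.1, of 4 exons at the same place, rose from 12.2 and 7.34 to 839 and 1064 FPKM (log2 change 6.63, SE 0.31, adjusted p = 0.00672). The 2 transcripts overlap almost wholly, so their values are not independent. In both, every 5-AZA value was far above every untreated value.

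NONMMUT016276.2 spans 673 kb of the minus strand at chr13:7279313-7952474 with 8 exons and 3254 bases of transcript. It overlaps Gm36074 and Gm36136 on the opposite strand, and Gm6437 and Gm8725, which have no strand in the reference used here. It was at 38.8 and 39.2 FPKM in the untreated and 2051 and 2481 FPKM in the 5-AZA samples (log2 change 5.85, SE 0.18, adjusted p = 0.00462). NONMMUT027438.2 spans 1136 kb of the plus strand at chr16:79943345-81079049 with 11 exons and overlaps 1700066C05Rik and Gm41479. It was at 27.5 and 28.2 FPKM in the untreated and 1689 and 2146 FPKM in the 5-AZA samples (log2 change 6.09, SE 0.19, adjusted p = 0.00462). Such wide spans are unusual among these lncRNAs, of which 68 of 2441 span more than 100 kb, and the median span is 4.64 kb.

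NONMMUT137452.1 at chrX:143172663-143179542, 2 exons, was at 36.1 and 23.5 FPKM in the untreated and 1776 and 2209 FPKM in the 5-AZA samples (log2 change 6.08, SE 0.28, adjusted p = 0.00659). NONMMUT038762.2 at chr2:98796689-98798408, 2 exons, was at 6.46 and 4.89 FPKM and at 1150 and 1469 FPKM (log2 change 7.83, SE 0.23, adjusted p = 0.00462). Neither overlaps a RefSeq gene, and the nearest protein-coding genes are 67.3 kb (Rtl9) and 1165 kb (Lrrc4c) away. Lrrc4c was listed at 0 in both untreated samples and below 0.01 FPKM in both 5-AZA samples.

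The replicates of the 5-AZA group differed in 1 direction among the abundant risers. In 18 of the called lncRNAs with at least 20 FPKM in both 5-AZA samples, the ratio of replicate 102 to replicate 101 was 1.01 to 1.92 with a median of 1.26. In the 26 other unclassed lncRNAs at these levels it was 0.407 to 1.55 with a median of 1.01. The summed muscle markers stood at 1055 FPKM in replicate 101 and 1586 FPKM in replicate 102. The summed adipocyte markers stood at 1108 and 1524 FPKM in the same order. Summed over all mRNAs, FPKM was 328410 in replicate 101 and 361664 in replicate 102. The part of muscle cells, fat cells or scaling in the difference between the replicates was not tested.

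The largest changes began from almost nothing. NONMMUT124510.1, 2 exons at chr6:132557581-132559940, was below 0.01 FPKM in both untreated samples and at 139 and 268 FPKM in the 5-AZA samples (log2 change 10.92, SE 0.37, adjusted p = 0.00462). It lies outside genes, 9.90 kb from Prh1, a salivary proline-rich protein gene listed at 0 in all 4 samples. The size of such a change depends on the pseudocount. 16 unclassed lncRNAs went from below 0.01 FPKM in both untreated samples to at least 1 FPKM in both 5-AZA samples, and 6 went the other way. Of all tested lncRNAs 0.37% switched on and 0.141% switched off by the same rule. All 16 that switched on were called higher, and in 6 of them both untreated samples were listed at exactly 0.

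NONMMUT126915.1 lies within Snhg14, the very long noncoding transcript of the Prader-Willi and Angelman region that carries clusters of snoRNAs and runs opposite to Ube3a. Its 3 exons lie at chr7:59692438-59696211 on the minus strand and its span holds the snoRNA genes Gm24609 and Gm26365. It was at 0.610 and 0.988 FPKM in the untreated and 248 and 299 FPKM in the 5-AZA samples (log2 change 8.28, SE 0.28, adjusted p = 0.00462), so the groups were far apart. The mRNA of Ube3a was at 29.0 and 28.0 FPKM in the untreated and 31.8 and 31.3 FPKM in the 5-AZA samples (log2 change 0.15, adjusted p = 0.341). Snrpn, which lies in the same region, was listed at 0 in both untreated samples and at 0.237 and 0.0772 FPKM in the 5-AZA samples.

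Over all 93 tested unclassed lncRNAs whose span holds a snoRNA gene, 2 were called higher, the other being NONMMUT017881.2 opposite Zfp808. Of all tested lncRNAs 0.984% and of the unclassed ones 1.64% were called higher. With FPKM summed over the overlapping transcripts of its locus, NONMMUT017881.2 did not pass (log2 change 2.75, adjusted p = 0.284). The median change of the 93 was -0.18. Well known snoRNA hosts did not pass the test. Zfas1, whose introns yield Snord12, was represented by NONMMUT146577.1 at a mean of 69.6 FPKM with a log2 change of 0.33 (adjusted p = 0.473), and 3 transcripts of Gas5, a host gene linked to growth arrest, had changes of -0.08 to 0.09.

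H19 is an imprinted lncRNA next to Igf2, abundant in the embryo and in muscle precursors, and its first exon holds miR-675. NONMMUT127918.1 has the same start and end as RefSeq H19, chr7:142575530-142578146, with 5 exons and 2284 bases. It was at 0.144 and 0.0722 FPKM in the untreated and 13.5 and 21.9 FPKM in the 5-AZA samples. Its mean rose from 0.108 ± 0.0507 FPKM (SD, n = 2) to 17.7 ± 5.98 FPKM (SD, n = 2), log2 change 6.40, SE 0.37, adjusted p = 0.0101. The groups did not overlap, although the 5-AZA samples differed from each other by a ratio of 1.63.

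H19 is listed as 8 transcripts, 2 of them unclassed and 6 intergenic. The other unclassed one, NONMMUT127917.1, had values of 0.139 FPKM at most. The most abundant, the intergenic NONMMUT064276.2, has the same start, end and number of exons and was at 0.942 and 1.16 FPKM in the untreated and 370 and 590 FPKM in the 5-AZA samples (log2 change 8.67, adjusted p = 0.00462). The unclassed transcript thus held a small part of the FPKM of H19, and the division of reads between near-identical transcripts is an estimate of the authors' counting. The neighbouring Igf2 mRNA, which codes for insulin-like growth factor 2, was at 1.34 and 0.855 FPKM in the untreated and 26.5 and 25.7 FPKM in the 5-AZA samples (log2 change 4.48, SE 0.21, adjusted p = 1.93e-06). Mrpl23, the nearest protein-coding gene to NONMMUT127918.1, had a change of 0.04 (adjusted p = 0.839).

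Of 20 imprinted genes in the list used, 6 carried 29 tested unclassed lncRNAs. Of the 29, the H19 transcript was called higher and 0 lower by limma, against 0.984% and 0.154% of all tested lncRNAs. At an unadjusted p below 0.05, 4 were higher and 1 lower, and the median change of the 29 was -0.07. Rian and Meg3 are maternally expressed lncRNAs of the Dlk1-Dio3 region and host many snoRNAs and miRNAs. The 16 tested transcripts of Rian summed to 30.5 and 31.1 FPKM in the untreated and 33.9 and 29.7 FPKM in the 5-AZA samples, so the groups overlapped. Singly, their changes ran from -1.49 to 1.71. The 7 of Meg3 summed to 17.3 and 22.0 FPKM and to 19.9 and 14.7 FPKM. Rtl1, a paternally expressed gene on the opposite strand of this region, was at 0.0912 and 0.0134 FPKM in the untreated and 0.609 and 0.734 FPKM in the 5-AZA samples (log2 change 2.38, SE 0.39, adjusted p = 0.00228). The 4 transcripts of Airn, the antisense lncRNA of Igf2r, summed to 3.26 and 2.97 FPKM and to 4.46 and 6.41 FPKM.

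**Figure D2:**
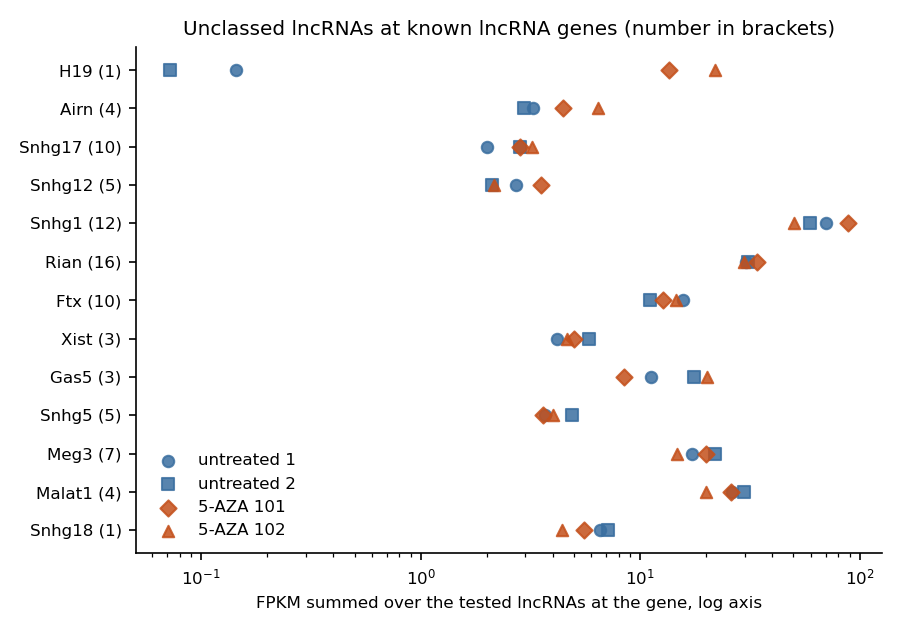
FPKM summed over the tested unclassed lncRNAs at 13 known lncRNA genes (log axis), 1 symbol per sample, with the number of lncRNAs in brackets. H19 stands far apart between the groups, and the groups overlap at genes such as Rian, Ftx, Xist and Gas5.

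The list of lncRNA host and structural genes had 20 genes, of which 12 carried 56 tested unclassed lncRNAs. By limma 0 of the 56 were called in either direction, and at an unadjusted p below 0.05, 2 were higher and 5 lower. Their median change was -0.13 and the range ran from -3.12 to 3.76. Xist, which coats the inactive X chromosome, summed over 3 transcripts to 4.19 and 5.83 FPKM in the untreated and 4.99 and 4.63 FPKM in the 5-AZA samples. Malat1, a nuclear speckle lncRNA, summed over 4 transcripts to 26.3 and 29.8 FPKM in the untreated and to a mean of 22.9 ± 4.26 FPKM (SD, n = 2) in the 5-AZA samples. The interferon, matrix, immune and cardiac lists had no gene overlapped by a tested unclassed lncRNA.

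Transcripts of 1 locus often had changes of opposite sign. The 2441 lncRNAs lay in 1991 loci of overlapping transcripts of the same strand that have no class, single-exon ones included, and 254 loci held at least 2 of them. In 137 of the 254 the changes had both signs, and the median gap between the highest and the lowest change was 1.14 on the log2 scale. In the 19 loci with at least 5 tested unclassed lncRNAs (142 in all), 50 of them changed by more than 1 in either direction, and the median gap was 3.20. The change of the summed FPKM was under 1 in size in 16 of the 19 loci, with a largest size of 1.85. Replicates of a group also differed by more than 2 in 15.3% (untreated) and 16.5% (5-AZA) of the 2441. The part of this spread in the gaps and the opposite signs was not tested.

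**Figure D3:**
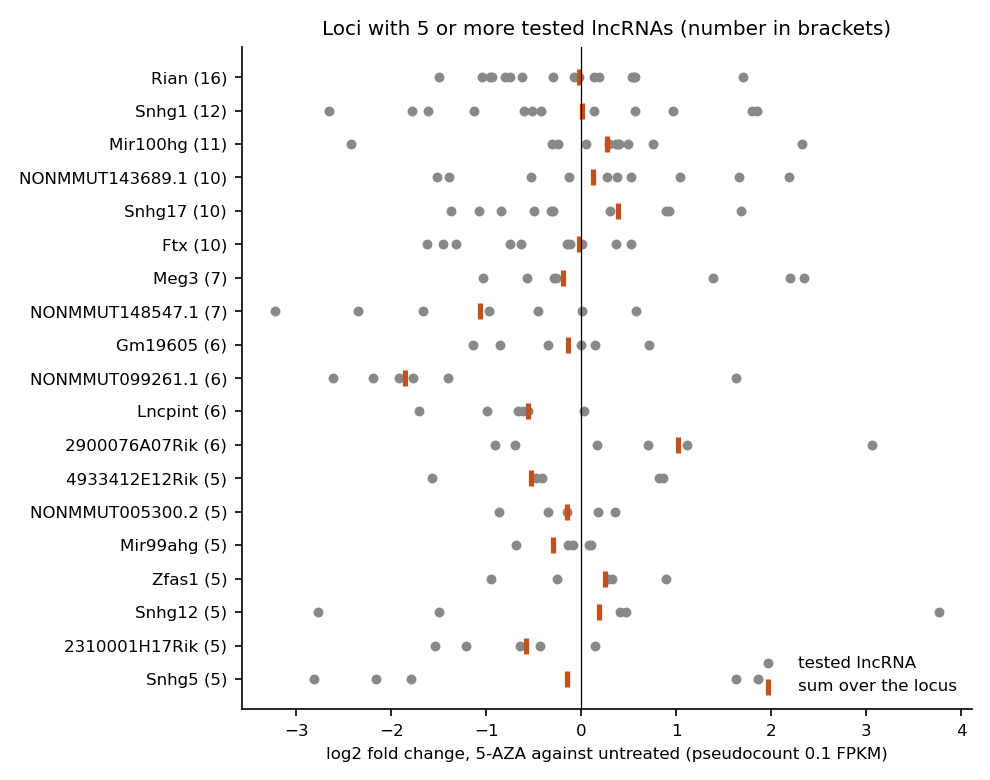
Log2 fold change (5-AZA against untreated) of each tested unclassed lncRNA (grey points) and of the summed FPKM of its locus (orange bars) in the 19 loci with at least 5 of them. Points spread to both sides of 0 at Rian, Snhg1 and Snhg12, and most bars lie near 0.

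Snhg12, a snoRNA host gene, showed the widest gap among the 19 loci. NONMMUT049836.2 was at 0.0146 and 0.000973 FPKM in the untreated and 1.91 and 0.962 FPKM in the 5-AZA samples (log2 change 3.76, adjusted p = 0.0717). NONMMUT148227.1 was at 2.01 and 0.129 FPKM in the untreated and below 0.01 FPKM in both 5-AZA samples (log2 change -2.77, adjusted p = 0.432). All 5 tested transcripts of Snhg12 together were at 2.73 and 2.11 FPKM in the untreated and 3.52 and 2.15 FPKM in the 5-AZA samples, which overlap. At Snhg1, 12 transcripts had changes of -2.66 to 1.85 and summed to 70.4 and 59.5 FPKM in the untreated and 88.7 and 50.2 FPKM in the 5-AZA samples.

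With FPKM summed over each locus, 48 loci with an unclassed lncRNA were called higher and 4 lower, of 2601 tested. Of all loci tested 1.08% were called higher and 0.157% lower. The 40 transcripts called higher lay in 38 loci, of which 34 were also called higher as sums, and 3 of the 5 loci with a call lower were also called lower. The exceptions among the rises were NONMMUT017868.2, NONMMUT125096.1, NONMMUT017881.2 and NONMMUT025225.2, and among the falls NONMMUT132113.1 and NONMMUT042590.2.

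The 5 falls were small transcripts of 2 exons and 316 to 478 bases. NONMMUT132113.1 at chr9:19289205-19311250, outside genes and 27.2 kb from the olfactory receptor gene Olfr845, was at 10.1 and 7.56 FPKM in the untreated and 0.115 and 0.0128 FPKM in the 5-AZA samples (log2 change -5.82, SE 0.43, adjusted p = 0.0185). Its locus holds 1 more transcript, and summed they were at 22.8 and 18.9 FPKM in the untreated and 10.2 and 6.76 FPKM in the 5-AZA samples (log2 change -1.31, adjusted p = 0.189). The fall of the single transcript was larger than that of the locus, and its call was lost with a pseudocount of 0.01 FPKM.

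The other 4 were listed at 0 in both 5-AZA samples, so no fold is given. NONMMUT150658.1 at chr6:121255203-121272685 was at 1.88 and 1.80 FPKM in the untreated samples (adjusted p = 0.0216). It overlaps Gm44148 and Usp18, the interferon-induced protease that removes ISG15 from proteins. The mRNA of Usp18 went the other way, from 0.511 and 0.359 FPKM to 12.7 and 13.0 FPKM (log2 change 4.61, SE 0.21, adjusted p = 1.96e-06), and RefSeq as used here gave no strand for either gene.

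NONMMUT139554.1 at chr10:78400624-78401908, opposite Rrp1, which takes part in ribosomal RNA processing, was at 1.31 and 1.73 FPKM in the untreated samples (adjusted p = 0.0311). The mRNA of Rrp1 had a change of -0.05 (adjusted p = 0.784). NONMMUT128784.1 at chr8:68041411-68074393, opposite Psd3, was at 1.21 and 1.31 FPKM in the untreated samples (adjusted p = 0.0342), and the mRNA of Psd3 had a change of -0.19 (adjusted p = 0.286). NONMMUT042590.2 at chr3:35937691-35942831, in Gm15952, was at 1.08 and 1.17 FPKM (adjusted p = 0.0417). NONMMUT139554.1, NONMMUT128784.1 and NONMMUT042590.2 lost their call with a pseudocount of 0.01 FPKM and with 1 FPKM. All 4 were low in the untreated cells too, and the depth behind these FPKM values is unknown.

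**Figure D4:**
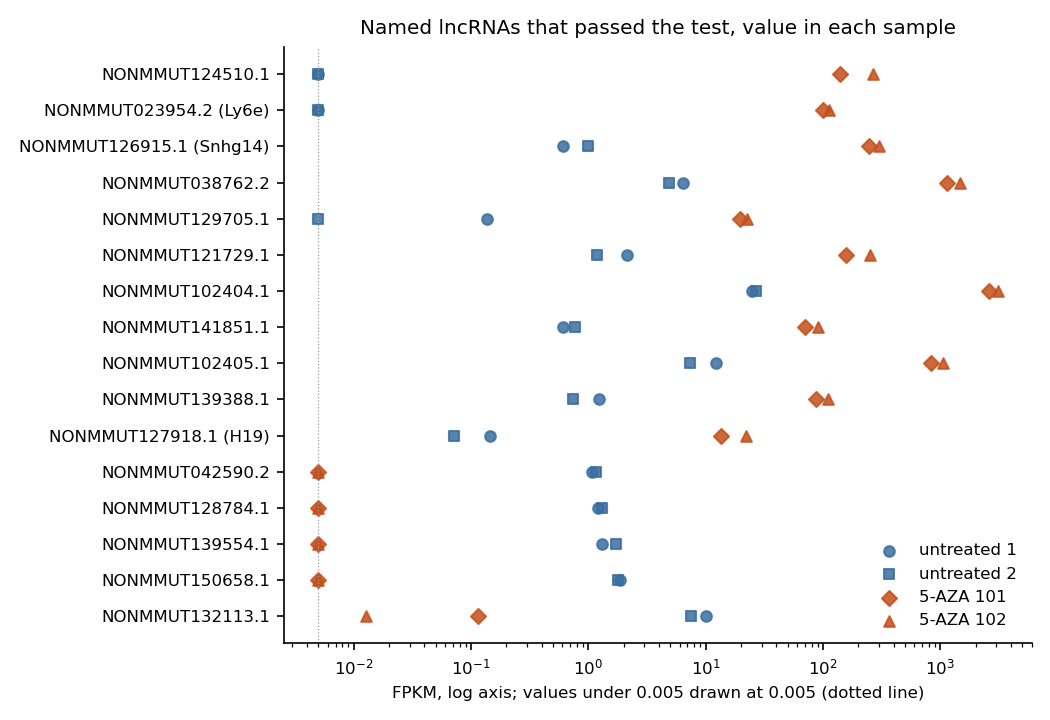
FPKM in each of the 4 samples (log axis) for the 11 named rises and the 5 falls, with values under 0.005 FPKM drawn at 0.005. The 2 untreated and the 2 5-AZA values of each lncRNA lie on opposite sides with no overlap.

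A fall of larger size missed the threshold. NONMMUT114836.1, chosen after its values were seen, lies in Chmp5, a gene of the ESCRT machinery, on the same strand. It was at 47.7 and 36.6 FPKM in the untreated and 0.00341 and 0.466 FPKM in the 5-AZA samples, which do not overlap (log2 change -7.44, SE 0.87, adjusted p = 0.0585). The mRNA of Chmp5 had a change of 0.44.

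Ly6e, a surface protein gene induced by interferon, contains NONMMUT023954.2 (chr15:74958668-74959333, 2 exons, 659 bases). This lncRNA was below 0.01 FPKM in both untreated samples and at 99.8 and 112 FPKM in the 5-AZA samples (log2 change 10.01, SE 0.21, adjusted p = 0.00462). The mRNA of Ly6e was at 0.309 and 0.211 FPKM in the untreated and 49.5 and 59.6 FPKM in the 5-AZA samples (log2 change 7.25, SE 0.20, adjusted p = 1.82e-07). Both rose. The reference used here gives no strand for Ly6e, and overlapping transcripts may share reads, so the 2 changes may not be independent.

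A few further rises lay at or near genes whose mRNA also rose. NONMMUT099723.1, in Gramd1c on the same strand, was at 0.470 and 0.377 FPKM in the untreated and 5.76 and 6.45 FPKM in the 5-AZA samples (log2 change 3.57, SE 0.25, adjusted p = 0.0160), and the mRNA of Gramd1c, a sterol transport protein, had a change of 1.33 (adjusted p = 0.00109). NONMMUT142232.1 at Agtr1a, the type 1 angiotensin receptor gene, was at 32.4 and 30.9 FPKM and at 134 and 171 FPKM (log2 change 2.25, SE 0.19, adjusted p = 0.0272). The mRNA of Agtr1a was far lower per length, at 0.137 and 0.298 FPKM in the untreated and 1.19 and 0.552 FPKM in the 5-AZA samples (log2 change 1.58, adjusted p = 0.0271). NONMMUT129705.1 in Gm4316 was at 0.137 and below 0.01 FPKM in the untreated and 19.7 and 22.6 FPKM in the 5-AZA samples (log2 change 7.10, SE 0.49, adjusted p = 0.0148), a call lost with a pseudocount of 0.01 FPKM. Summed with the other transcript of its locus, FPKM was 3.50 and 2.01 in the untreated and 24.9 and 27.2 in the 5-AZA samples (log2 change 3.24, adjusted p = 0.0340). NONMMUT129705.1 lies 7.47 kb from Dpep1, a membrane dipeptidase gene, whose mRNA had a change of 5.32 (adjusted p = 1.98e-06). Beside some other rises the neighbouring mRNA went the other way. NONMMUT129992.1 (log2 change 4.34) lies 7.41 kb from AF366264, whose mRNA was called lower (log2 change -1.48, adjusted p = 0.0205). NONMMUT125096.1 (log2 change 4.53) lies 0.057 kb from Zfp141, whose mRNA had a change of -0.68 (adjusted p = 0.0309), under the 2-fold limit.

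Other rises lay at genes whose mRNA did not pass. NONMMUT146177.1 in Hspa12a, a gene of the Hsp70 family, was below 0.01 FPKM in the untreated and at 1.77 and 2.59 FPKM in the 5-AZA samples (log2 change 4.48, adjusted p = 0.0240), and the mRNA had a change of 0.05 (adjusted p = 0.954). NONMMUT101688.1 at Gm52305 and Zdhhc14 was below 0.01 FPKM in the untreated and at 3.98 and 8.72 FPKM in the 5-AZA samples (log2 change 5.91, adjusted p = 0.0224), and the mRNA of Zdhhc14, a palmitoyltransferase, had a change of -0.92 (adjusted p = 0.0409), under the 2-fold limit. NONMMUT121729.1 at chr6:3246847-3252506, NONMMUT141851.1 at Gm46349 and NONMMUT139388.1 at Gm47939 rose from 2.15 FPKM at most in the untreated samples to at least 69.7 FPKM in the 5-AZA samples. Their nearest protein-coding genes are 87.3 to 245 kb away.

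Over all pairs of a tested unclassed lncRNA and a tested protein-coding gene on the same strand, there were 440 pairs of 418 lncRNAs and 402 genes. In the 24 pairs whose mRNA was called higher, the median change of the lncRNA was 0.47, and it was above 0 in 18. In the pairs whose mRNA was not called the median was -0.29, and in the 5 whose mRNA was called lower it was -0.47, with 4 below 0. Across the 440 pairs Pearson's r between the changes was 0.24 and Spearman's rho 0.23, as a description over pairs that share libraries and reads. Ttn, the giant sarcomere protein, is an example: its mRNA rose by 6.13 on the log2 scale (adjusted p = 1.35e-06), and NONMMUT109271.1 within it was listed at 0 in both untreated samples and at 0.229 and 0.519 FPKM in the 5-AZA samples (adjusted p = 0.296).

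On the opposite strand there were 539 pairs of 516 lncRNAs and 439 genes. In the 46 pairs whose mRNA was called higher the lncRNA was above 0 in 18, with a median change of -0.19, against -0.18 where the mRNA was not called. Pearson's r was 0.02 and Spearman's rho 0.07. Rtl1 alone gives 16 of these 46 pairs, with transcripts of Rian and Meg3, of which 5 were above 0. In the other 30 pairs the lncRNA was above 0 in 13, with a median change of -0.14, a split chosen after the data were seen. In the 8 pairs whose mRNA was called lower, the lncRNA was below 0 in 7, with a median change of -1.39.

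**Figure D5:**
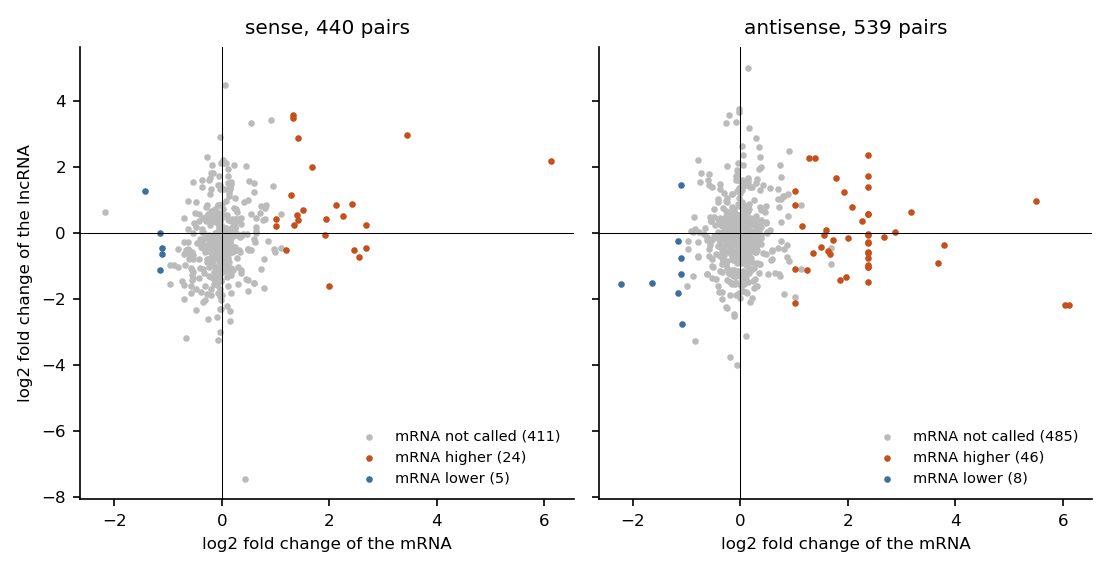
Log2 fold change (5-AZA against untreated) of the mRNA (horizontal) and of the overlapping unclassed lncRNA (vertical), left for 440 pairs on the same strand and right for 539 pairs on opposite strands, coloured by the call of the mRNA. The column of points at 2.38 in the right panel is Rtl1 with the transcripts of Rian and Meg3.

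Among the 62 miRNA hosts, H19 was called higher and 0 were called lower by limma, against 0.984% and 0.154% of all tested lncRNAs. At an unadjusted p below 0.05, 4 were higher and 2 lower, and the median change was -0.13. The hosts of miR-31 are 3 transcripts in Gm49890, and NONMMUT148537.1 had the highest mean over the 4 samples among the 62, although the H19 transcript was higher in the 5-AZA samples. NONMMUT148537.1 was at 21.0 and 18.2 FPKM in the untreated and 9.34 and 10.5 FPKM in the 5-AZA samples, which do not overlap (log2 change -0.98, adjusted p = 0.184). Summed with the other transcripts of its locus, FPKM was 61.3 and 57.5 in the untreated and 27.0 and 24.3 in the 5-AZA samples (log2 change -1.21, SE 0.16, adjusted p = 0.0750), which missed the threshold.

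The host of miR-221 and miR-222, NONMMUT154261.1, was at 5.43 and 5.22 FPKM in the untreated and 4.21 and 2.97 FPKM in the 5-AZA samples (log2 change -0.58, adjusted p = 0.446). These miRNAs share the seed GCUACAU shown above and are known for repressing cell cycle inhibitors. The more abundant host of let-7a, let-7d and let-7f, NONMMUT142731.1, was at 6.22 and 6.08 FPKM and at 5.61 and 5.09 FPKM (log2 change -0.20, adjusted p = 0.662). The other, NONMMUT017375.2, was at 2.44 and 0.812 FPKM and at 0.197 and 1.19 FPKM, which overlap (log2 change -1.30, adjusted p = 0.603). NONMMUT154261.1 and NONMMUT142731.1 were slightly lower in the 5-AZA samples, with no overlap. Both 5-AZA values lay below both untreated values in 22.0% of the unclassed and 31.7% of all tested lncRNAs. The median change of all tested lncRNAs was -0.23. None of these hosts passed the test.

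NONMMUT027363.2, a transcript of Mir99ahg that holds miR-99a and let-7c, was at 0.595 and 2.44 FPKM in the untreated and 0.873 and 1.99 FPKM in the 5-AZA samples (log2 change 0.10, adjusted p = 0.966). NONMMUT132397.1 in Mir100hg, which holds miR-100, miR-125b-1 and let-7a-2, was at 0.456 and 0.643 FPKM and at 0.553 and 0.577 FPKM (log2 change 0.05, adjusted p = 0.959). The host of miR-322 and miR-503, NONMMUT136920.1, had a change of -0.71 (adjusted p = 0.553). The groups overlapped for the first 2 of these hosts, whose miR-99a and miR-100 share the seed ACCCGUA.

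The highest mean levels over the 4 samples belonged partly to lncRNAs that did not pass the test. NONMMUT038760.2 at chr2:98666719-98667308 was at 551 and 1939 FPKM in the untreated and 1446 and 2047 FPKM in the 5-AZA samples (log2 change 0.74, adjusted p = 0.635), and the untreated samples differed more than the groups. NONMMUT145030.1 at chr17:13586598-13655149 was at 501 and 496 FPKM and at 404 and 318 FPKM (log2 change -0.47, adjusted p = 0.412). NONMMUT000379.2 at chr1:24615670-24616192 was at 283 and 147 FPKM and at 217 and 186 FPKM (log2 change -0.02, adjusted p = 0.987). NONMMUT038757.2, next to NONMMUT038760.2, was at 155 and 200 FPKM and at 357 and 404 FPKM, with no overlap but an adjusted p of 0.169. Of the 10 with the highest mean, 6 were called higher and 4 were not called.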

How the data were processed

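RNA of 2 untreated and 2 5-AZA treated C3H10T1/2 samples was depleted of ribosomal RNA and sequenced with a strand-marking kit. The authors deposited FPKM values per lncRNA and mRNA transcript. The submitters' processing notes name Trimmomatic, HISAT2, Bowtie2 2.2.9, eXpress 1.5.1, which divides shared reads among transcripts, and mm9. The coordinates are, however, those of GRCm38: 1984 of 131850 lncRNAs have the start and end of a RefSeq gene of GRCm38.p6, and 2055 of 2131 host transcripts in the circRNA table lie within 200 bases of their RefSeq gene. Starts were raised by 1 base. circRNA values were not used.

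Log2(FPKM + 0.1) was fitted with limma 3.58.1 (eBayes with trend) in R 4.3.3 for lncRNAs averaging 0.1 FPKM or more, for summed loci, and for mRNAs summed per gene, each adjusted by Benjamini and Hochberg's method over its whole table. Both groups entered every fit. The fit was tested on simulated data. The depth of the libraries is unknown from FPKM, and the number of samples limits the precision: with 2 against 2 no permutation can reach 0.05. 

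The lncRNAs and gene lists were chosen with earlier results of these data known. Named lncRNAs are the 10 largest rises and falls among calls without overlap and a mean of 1 FPKM or more in the group where it is higher, the 10 with the highest mean, the 3 with most exons, calls at genes of the lists and those at the limit; 7 lncRNAs named by the study were looked for and 0 of them are unclassed multi-exon lncRNAs. Other lncRNAs in the text are further calls, host genes and examples named after their values were seen. Strand was known for 27438 of 49993 RefSeq genes. Alternatives were other pseudocounts, limits, scalings, eBayes without trend, summed loci and each sample left out.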

Additional observations from a re-analysis of the deposited data

How the results depend on the processing

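Against 40 called higher and 5 lower, there were 33 and 1 with a pseudocount of 0.01 FPKM, 27 and 3 with 1 FPKM, and 27 and 3 with a limit of 1 FPKM. Of the 5 falls, 2 were among the 3 with a pseudocount of 1 FPKM and 1 among the 3 with the limit of 1 FPKM. With no limit, and with any 1 sample left out (range 0 to 0), limma called 0 in either direction. With no limit, an unadjusted p below 0.05 was reached by 412 that were higher and 298 that were lower, against 207 and 155 with the limit. Among lncRNAs of at least 3 exons 13 rises and 0 falls were called, since all 5 falls have 2 exons. Centring on the median (42 and 5), quantile normalization (42 and 6), equal sums without the most abundant lncRNA (38 and 7) and eBayes without trend (32 and 5) gave counts within 1.5 times of the main ones. All 40 rises were also called after centring and after quantile normalization. Summed loci gave 48 and 4 against 38 and 5.

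The median change of -0.07 was -0.021 with a pseudocount of 1 FPKM, 0 with no limit, 0.096 after centring, 0.028 after quantile normalization, -0.23 with equal sums and -0.039 with at least 3 exons. Its sign thus depended on the scaling. With 1 sample left out it ran from -0.079 to 0. Of the 27 lncRNAs named by the rule, the 19 called kept their direction in every setting that tested them. Of those, 5 lost their call with a pseudocount of 0.01 FPKM (NONMMUT042590.2, NONMMUT128784.1, NONMMUT129705.1, NONMMUT132113.1 and NONMMUT139554.1), 3 of these 5 also with 1 FPKM (NONMMUT042590.2, NONMMUT128784.1 and NONMMUT139554.1), and all 19 with no limit or with any 1 sample left out. Of the 8 not called, 5 changed sign. After centring, NONMMUT000379.2 was at 0.15 and NONMMUT150442.1 at 0.040, and after quantile normalization NONMMUT038757.2 was at -0.16. With 1 sample left out, NONMMUT000379.2 ran from -0.49 to 0.45 (0.45 without untreated replicate 1 and 0.092 without 5-AZA replicate 102), NONMMUT038760.2 from -0.17 (without untreated replicate 1) to 1.64, and NONMMUT141653.1 from -1.27 to 0.032 (without 5-AZA replicate 101). The cause was not tested. No paired analysis was possible because the groups share no replicate number. With 1 sample left out a group holds 1 sample, which is then assumed to vary like the other group.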
